A study of Homo sapiens with 12 samples.

Results

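The genes described here are the 52 of 61466 in the deposited table that code for the machinery of DNA replication, listed by gene symbol. They comprise the replicative helicase, the factors that load and fire it, the sliding clamp and its loader, the polymerases, the enzymes of the lagging strand, the single-strand binding protein, the fork protection factors, and factors that restore chromatin and DNA methylation behind the fork. RNA was sequenced from SU-DHL-8 and Farage, established lines of diffuse large B cell lymphoma (a cancer of mature B cells) that the labels trace to lymph node and list as wild type. Each line received morusinol, a flavonoid of mulberry, or was a control, at 12 h, and each of the 4 groups has 3 libraries, 12 in all. Each line is a single cell line, no source used here gives the dose or what the controls received, and whether the libraries are from separate cultures is likewise unstated, so that p-values speak only of the spread between libraries. The unit is FPKM, which divides fragments by the length of the gene and the size of the library. Log2 fold changes are of FPKM + 1 and are given ± SE, and the call rests on limma with an adjusted p (Benjamini-Hochberg, over all 17574 genes tested) under 0.05. Where library values are set against each other, controls come first.

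Before S phase, the origin recognition complex (ORC), CDC6 and CDT1 load the MCM2 to MCM7 helicase onto DNA, a step called licensing, and geminin (GMNN) blocks further loading once replication has begun. The kinase CDC7 with DBF4, together with MCM10, then helps to recruit CDC45 and the GINS complex, which turn the helicase into an active fork. Polymerases alpha, delta and epsilon copy the strands there, and the PCNA clamp tethers polymerases delta and epsilon to DNA. Many of these genes are classical targets of the E2F transcription factors, so their RNA rises as cells pass from G1 into S phase.

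Both lines carried the markers of their labelled cell type. All 6 B cell markers, among them CD79A and PAX5, were present in every library, with a lowest value of 2.67 FPKM, and their summed level was 354 to 368 FPKM in SU-DHL-8 controls, 230.1 to 238 after morusinol, 966 to 1021 in Farage controls and 613 to 659.9 after morusinol. No library exceeded 2.29 FPKM for any of 6 T and NK cell markers, 1.43 for any of 6 myeloid markers or 1.32 for any of 7 stromal and epithelial markers, and the myeloid genes S100A8 and S100A9 were at 0 throughout. Summed stromal and epithelial markers were at 0.0611 to 0.134 FPKM in SU-DHL-8 controls and 0.558 to 0.79 after morusinol, and at 0.392 to 1.53 and 1.28 to 2.18 in Farage. Summed T and NK cell markers were at 0.907 to 1.66 and 1.77 to 2.29 FPKM in SU-DHL-8 and 0.351 to 0.887 and 0.395 to 0.995 in Farage, and myeloid markers at 1.69 to 1.78 and 0.926 to 1.29 in SU-DHL-8 and 0.548 to 0.806 and 0.702 to 0.809 in Farage. The part of these low levels in the results was not tested. By estimate the libraries held 6.05 to 19.0 M (mega) fragments, and the shallowest was an SU-DHL-8 morusinol library. Estimated depth was 15.2, 14.2 and 14.8 M in SU-DHL-8 controls and 11.3, 6.05 and 14.97 M after morusinol. In Farage it was 19.0, 18.6 and 16.6 M in controls and lower in every morusinol library, at 12.7, 9.36 and 10.7 M. The part of depth in the results was not tested.

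Stretches upstream of a RefSeq transcript start (build GRCh38.p14, the strand of each gene, 5′ to 3′) are shown for 5 genes whose responses to morusinol span the range seen here. MCM6, UHRF1 and CLSPN fell in SU-DHL-8 with far smaller changes in Farage, PCNA fell strongly in both lines, and RFC1 was higher in Farage after treatment. Capitals mark matches to an E2F motif (TTTCCCGC, TTTCGCGC, TTTGCCGC or TTTGGCGC) or to the CCAAT box, read on both strands, so that a marked run may hold overlapping matches on opposite strands. The stretches lie at chr2:135876444-135876693 (MCM6, minus strand), chr20:5126627-5126785 (PCNA, minus strand), chr19:4909894-4910143 (UHRF1, plus strand), chr1:35769979-35770228 (CLSPN, minus strand) and chr4:39366376-39366612 (RFC1, minus strand), and hold no exon of GENCODE release 29.
MCM6: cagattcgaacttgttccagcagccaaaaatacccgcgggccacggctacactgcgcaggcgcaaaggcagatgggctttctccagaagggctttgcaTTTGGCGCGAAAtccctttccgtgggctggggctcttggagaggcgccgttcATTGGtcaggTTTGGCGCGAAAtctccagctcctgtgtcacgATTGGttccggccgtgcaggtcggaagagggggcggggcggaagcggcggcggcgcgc
PCNA: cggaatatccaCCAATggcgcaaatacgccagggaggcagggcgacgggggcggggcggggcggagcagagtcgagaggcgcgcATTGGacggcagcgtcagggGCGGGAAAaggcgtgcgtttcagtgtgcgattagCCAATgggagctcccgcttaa
UHRF1: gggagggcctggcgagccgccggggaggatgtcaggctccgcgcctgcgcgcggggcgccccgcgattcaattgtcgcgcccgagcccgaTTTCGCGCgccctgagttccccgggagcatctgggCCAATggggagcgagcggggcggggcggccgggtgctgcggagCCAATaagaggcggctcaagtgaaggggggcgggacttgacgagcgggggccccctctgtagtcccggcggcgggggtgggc
CLSPN: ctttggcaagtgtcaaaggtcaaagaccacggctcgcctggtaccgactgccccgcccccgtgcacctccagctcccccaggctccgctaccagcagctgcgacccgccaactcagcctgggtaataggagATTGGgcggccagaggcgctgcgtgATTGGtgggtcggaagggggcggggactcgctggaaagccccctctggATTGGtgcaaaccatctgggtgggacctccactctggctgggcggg
RFC1: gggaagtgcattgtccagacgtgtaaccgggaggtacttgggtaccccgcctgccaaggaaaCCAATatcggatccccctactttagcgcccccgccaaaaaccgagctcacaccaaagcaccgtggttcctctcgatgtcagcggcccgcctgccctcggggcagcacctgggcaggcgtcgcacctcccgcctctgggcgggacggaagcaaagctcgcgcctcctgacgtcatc
The MCM6 stretch holds 4 E2F matches and 2 CCAAT boxes, the PCNA stretch 1 and 3, and the UHRF1 stretch 1 and 2. The RefSeq table has further starts for PCNA and UHRF1, whose windows (chr20:5120027-5120208, and chr19:4909251-4909429 and chr19:4910247-4910366) hold no E2F match, so that the stretch shown for each is the one with a match. CLSPN holds 3 CCAAT boxes and no E2F match, and RFC1 holds 1 CCAAT box and no E2F match.

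After 12 h of morusinol, 47 of the 52 replication genes fell in SU-DHL-8 and none rose, against 21.6% of all genes tested that fell and 25.1% that rose. The median log2 fold change was -0.79, where the median over all tested genes was 0.02. In Farage 37 of the 52 fell, against 21.2% of all genes, 3 rose (RFC1, PRIM1 and TIMELESS), against 21.9%, and 12 were not called, with a median of -0.39 against -0.03 over all genes. The same 37 genes fell in both lines, where 11.1% of all tested genes did. The 52 genes were chosen with earlier results of these data known, so their counts are given as a description. All 52 passed the filter on low values. Replication genes are well expressed, and among the 7349 genes with a mean of at least 5 FPKM, to which 50 of the 52 belong, 39.3% fell in SU-DHL-8 and 31.1% in Farage. FPKM are relative to the rest of each library, and in bulk RNA a smaller number of replicating cells and less of these RNAs per cell cannot be told apart.

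The falls were moderate for most genes and deep for a few. The median replication gene was left with 56.4% of its control FPKM in SU-DHL-8 and 74.2% in Farage, and 18 and 3 genes were left with under 50%. On the log2(FPKM + 1) scale 17 of the 52 fell at least 2-fold in SU-DHL-8, against 2.86% of all genes. In Farage 2 did so (MCM4 and FEN1), close to the 2.56% of all genes. With 1 added to every FPKM, genes of low control level can hardly fall 2-fold on this scale. The shares over all genes are therefore not matched to the level of the replication genes. The summed FPKM of the 52 genes was 2760, 2775 and 2713 in the SU-DHL-8 controls and 1389, 1379 and 1349 after morusinol. In Farage it was 1516, 1444 and 1527 in controls and 1093, 1092 and 1050 after morusinol. For 48 genes in SU-DHL-8 and 37 in Farage all 3 treated libraries lay below all 3 controls, against 24.9% and 25.3% of all genes. Both comparisons used their own controls, and across the 52 genes the log2 fold changes of the lines had a Pearson r of 0.566 and a Spearman rho of 0.446, given as a description because the points share libraries.

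**Figure D1:**
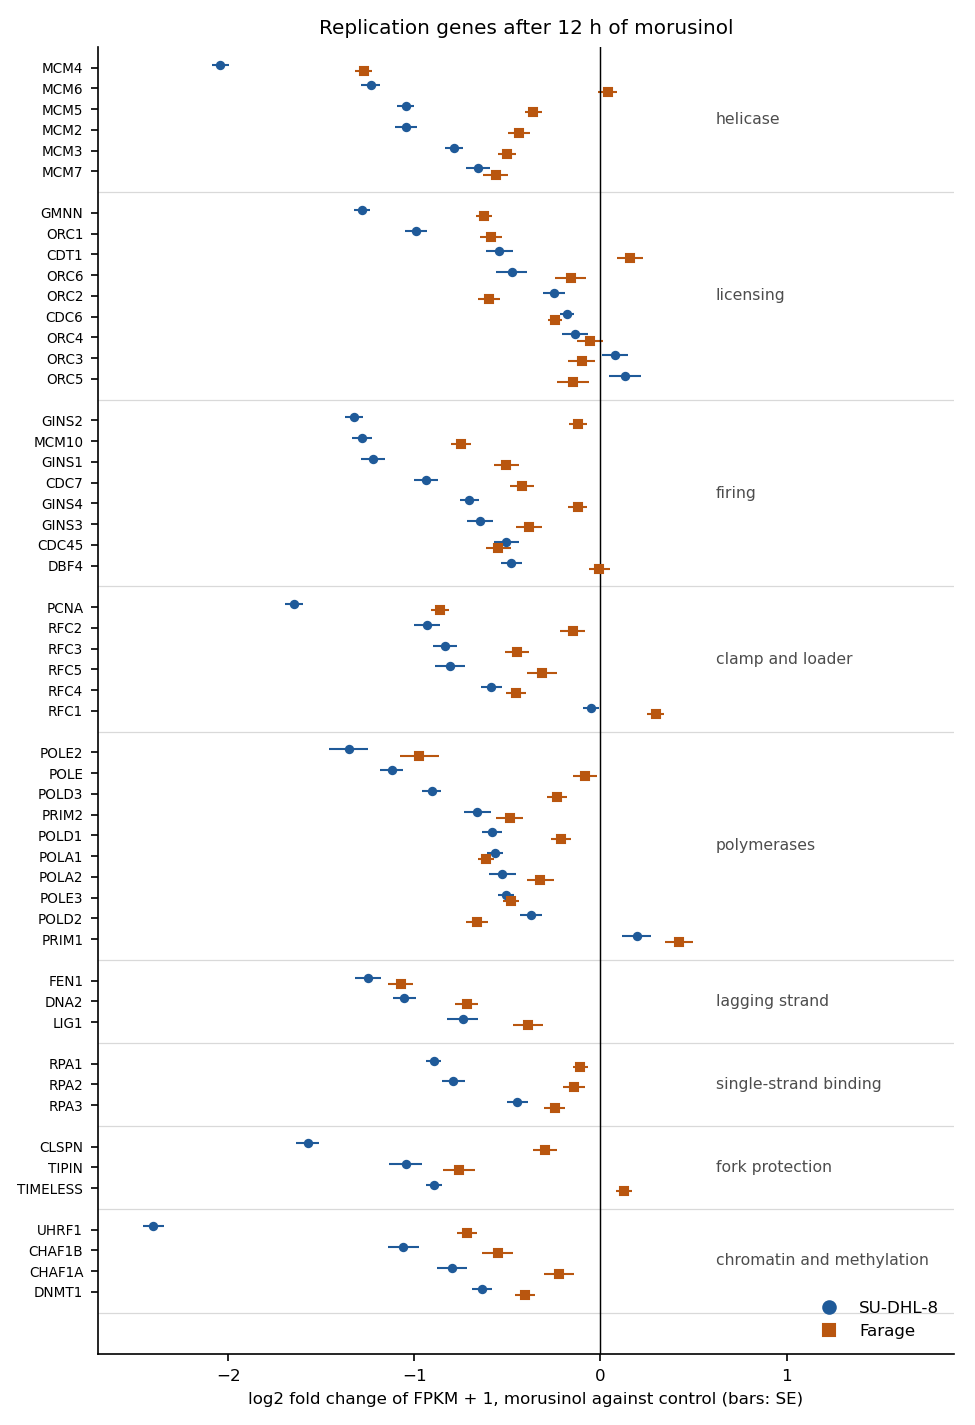
Log2 fold change of FPKM + 1 (morusinol against control) on the x axis for the 52 replication genes, grouped by role on the y axis, with circles for SU-DHL-8, squares for Farage and bars for the SE. Most points lie left of 0 in both lines, and UHRF1 (-2.40 in SU-DHL-8) and MCM4 (-2.04 in SU-DHL-8, -1.27 in Farage) lie farthest left.

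Counts in the 9 role groups stand against 21.6% of all genes that fell in SU-DHL-8 and 21.2% in Farage. Among genes with a mean of at least 5 FPKM these shares were 39.3% and 31.1%. Of all genes 25.1% and 21.9% rose. All 6 subunits of the MCM2 to MCM7 helicase, the motor that unwinds DNA at the fork, fell in SU-DHL-8, and 5 of 6 fell in Farage (medians -1.05 and -0.47). MCM4 was the most changed subunit. In SU-DHL-8 it stood at 91.2, 90.2 and 88.8 FPKM in controls and 21.7, 20.6 and 21.1 after morusinol (-2.04 ± 0.0458, adjusted p = 4.19e-10). In Farage it stood at 66.5, 59.8 and 65.2 in controls and 26.5, 26.5 and 24.6 after morusinol (-1.27 ± 0.0458, adjusted p = 1.38e-08). Treated and control libraries were far apart in both lines. MCM2 read 52.8, 51.9 and 54.9 FPKM in SU-DHL-8 controls and 27.2, 23.6 and 25 after treatment (-1.05 ± 0.0591, adjusted p = 1.91e-07). Its Farage values were 43.1, 38.4 and 43.1 in controls and 31.3, 30.3 and 29.4 after treatment (-0.44 ± 0.0591, adjusted p = 0.000154), again with no overlap. MCM7 changed least of the subunits by the mean over both lines. It had 203, 195 and 203 against 129.5, 129 and 121 FPKM in SU-DHL-8 without and with morusinol (-0.66 ± 0.0645, adjusted p = 1.13e-05) and 86.3, 73.5 and 83.6 against 56.4, 56.8 and 50.4 in Farage (-0.56 ± 0.0645, adjusted p = 4.91e-05).

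Among the subunits MCM6 had the largest difference between the lines. It was at 96.3, 102 and 91.5 FPKM in SU-DHL-8 controls and 41.8, 39.5 and 39.98 after morusinol (-1.23 ± 0.0511, adjusted p = 2.11e-08), so that every treated library was under every control. In Farage it was at 60.99, 60.2 and 65.7 in controls and 62.3, 67.4 and 62.6 after morusinol, overlapping ranges with no call (0.041 ± 0.0511, adjusted p = 0.573). The remaining subunits, MCM3 and MCM5, fell by 0.79 and 1.05 in SU-DHL-8 and by 0.50 and 0.36 in Farage on the log2 scale. Summed over the 6 subunits, FPKM was 743, 730.4 and 734 in SU-DHL-8 controls, 391, 379 and 369 after morusinol, 411, 369.8 and 405 in Farage controls, and 286, 289.7 and 268 after morusinol.

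**Figure D2:**
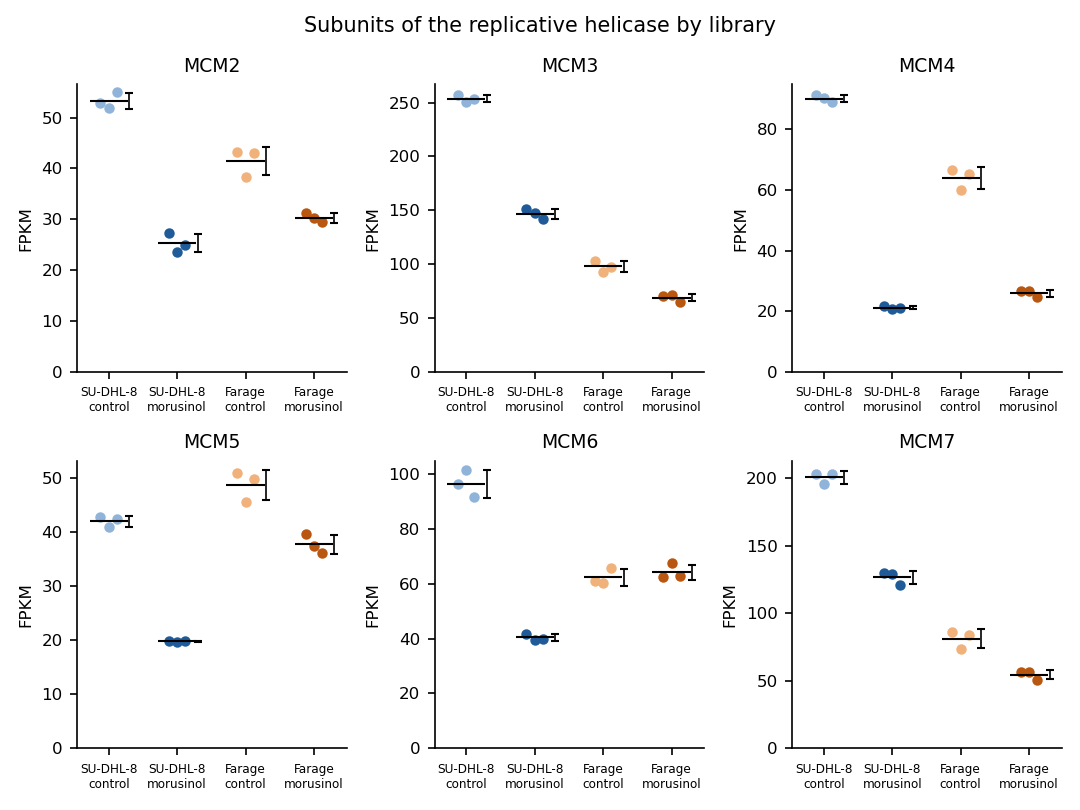
FPKM (y axis, starting at 0) of the 6 helicase subunits in each library of the 4 groups (x axis), with the mean as a line and the SD as a bar, n = 3 per group. In SU-DHL-8 all 6 subunits drop after morusinol, whereas the Farage libraries for MCM6 overlap, between 60.2 and 67.4 FPKM.

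Of 9 licensing factors 6 fell in SU-DHL-8 and 4 in Farage, and none rose (medians -0.25 and -0.16). The former was the median nearest to 0 among the 9 role groups in that line. The Farage count was not far above the 31.1% of genes with a mean of at least 5 FPKM that fell there. GMNN, which codes for the licensing inhibitor geminin, moved most. It was at 39.2, 41 and 38.2 FPKM in SU-DHL-8 controls and 14.7, 16.1 and 16.2 after morusinol (-1.28 ± 0.045, adjusted p = 7.32e-09). Farage controls covered the same range, 38.8, 40.3 and 40.4 FPKM, and treated libraries were at 24.8, 26.1 and 25.5 (-0.63 ± 0.045, adjusted p = 1.66e-06). ORC1, the ORC subunit whose amount follows the cell cycle, read 33.4, 32.5 and 33.04 against 16.5, 15.4 and 16.5 FPKM in SU-DHL-8 without and with morusinol (-0.99 ± 0.0595, adjusted p = 3.01e-07). In Farage it read 22.5, 20.6 and 20.7 against 13.4, 15.3 and 12.9 (-0.59 ± 0.0595, adjusted p = 1.99e-05), without overlap in either line.

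Of the other ORC subunits 3 were not called in either line. ORC3 was at 22.01, 22.5 and 22.1 FPKM in SU-DHL-8 controls and 24.3, 24.02 and 22.1 after treatment (0.077 ± 0.0702, adjusted p = 0.424), and at 13.3, 15.5 and 15.6 against 13.03, 13.1 and 15.1 in Farage (-0.10 ± 0.0702, adjusted p = 0.284). ORC4 and ORC5 had log2 fold changes of -0.13 and 0.13 in SU-DHL-8 and -0.057 and -0.15 in Farage. Rescaled to TPM or with library medians equalised, ORC4 was called lower in SU-DHL-8 (adjusted p between 0.00431 and 0.0219). ORC6 fell in SU-DHL-8 (-0.48) and was not called in Farage (-0.16). ORC2 fell in both lines, by 0.25 in SU-DHL-8 and 0.60 in Farage. CDC6, the ATPase that joins ORC to recruit the helicase, fell slightly in both lines (-0.18 and -0.24). CDT1, which delivers the helicase to ORC, fell in SU-DHL-8 (-0.54) and was not called in Farage (0.16).

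All 8 firing factors fell in SU-DHL-8 and 5 of 8 fell in Farage (medians -0.82 and -0.40). MCM10, which helps to activate the loaded helicase, was at 34.5, 34.2 and 34.8 FPKM in SU-DHL-8 controls and 12.7, 13.8 and 14.4 after morusinol (-1.28 ± 0.0534, adjusted p = 2.23e-08). In Farage it was at 17.1, 16.4 and 14.9 in controls and 9.18, 9.11 and 9.24 after morusinol (-0.75 ± 0.0534, adjusted p = 1.58e-06). GINS1, a subunit of the GINS part of the active helicase, was at 27.8, 28.6 and 25.5 FPKM in SU-DHL-8 controls and 11.8, 10.7 and 10.8 after morusinol (-1.22 ± 0.0665, adjusted p = 1.44e-07). These groups did not overlap, and neither did those of Farage, where GINS1 was low from the start, at 6.13, 6.27 and 7.32 FPKM in controls and 4.47, 4.202 and 4.29 after morusinol (-0.51 ± 0.0665, adjusted p = 0.000129).

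GINS2, its partner subunit, behaved differently between the lines. It was at 18.8, 18.7 and 18.5 FPKM in SU-DHL-8 controls and 7.17, 6.696 and 6.69 after morusinol (-1.32 ± 0.0494, adjusted p = 1.09e-08). The Farage values were 24.4, 22.9 and 24.2 in controls and 23.6, 21.1 and 21.01 after morusinol, which overlapped and were not called (-0.12 ± 0.0494, adjusted p = 0.0735). DBF4, the regulatory partner of the CDC7 kinase, was at 33.5, 33.8 and 33.3 FPKM in SU-DHL-8 controls and 22.8, 23.7 and 24.9 after treatment (-0.48 ± 0.0558, adjusted p = 4.21e-05). Its Farage libraries, 19.5, 20.3 and 19.8 in controls and 18.1, 19.7 and 21.6 after treatment, overlapped (-0.0055 ± 0.0558, adjusted p = 0.953). CDC7 itself fell in both lines (-0.93 and -0.42), as did CDC45 (-0.51 and -0.55) and GINS3 (-0.65 and -0.38). GINS4 fell in SU-DHL-8 (-0.70) and was not called in Farage (-0.12).

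Of the sliding clamp and the 5 subunits of its loader, replication factor C, 5 fell in SU-DHL-8 and 4 in Farage, where 1 rose (medians -0.82 and -0.38). PCNA, the ring that tethers polymerases to DNA, was the most abundant of the 52 genes in every group by mean FPKM. It stood at 628, 633 and 581 FPKM in SU-DHL-8 controls and 195, 204 and 188 after morusinol (-1.64 ± 0.0487, adjusted p = 2.49e-09). In Farage it stood at 232, 226 and 251 in controls and 130.3, 129 and 129 after morusinol (-0.86 ± 0.0487, adjusted p = 3.09e-07). Treated SU-DHL-8 libraries thus came to lie below the Farage controls. RFC3, a small loader subunit, was at 81.05, 91.5 and 78.5 against 44.9, 46.98 and 47.2 FPKM in SU-DHL-8 without and with morusinol (-0.84 ± 0.0654, adjusted p = 2.07e-06). It was at 28.1, 30 and 31.2 against 20.03, 21.9 and 22.7 in Farage (-0.45 ± 0.0654, adjusted p = 0.00027).

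RFC1, the large loader subunit, was the exception. Its SU-DHL-8 libraries, 24.7, 24.2 and 24.4 FPKM in controls and 22.4, 25.1 and 23.1 after morusinol, overlapped and were not called (-0.051 ± 0.045, adjusted p = 0.407). With library medians equalised RFC1 was called lower in SU-DHL-8 (adjusted p = 0.00746), as were all 6 genes of this group. In Farage it rose from 20.4, 19.8 and 20.4 to 24.2, 24.8 and 26.2 FPKM (0.30 ± 0.045, adjusted p = 0.000351). RFC4 and RFC5 fell in both lines, with log2 fold changes of -0.59 and -0.81 in SU-DHL-8 and -0.45 and -0.32 in Farage. RFC2 fell by 0.93 in SU-DHL-8 and was not called in Farage (-0.15).

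Among 10 subunits of polymerase alpha-primase, delta and epsilon, 9 fell in SU-DHL-8 and none rose, while 8 fell and 1 rose in Farage (medians -0.57 and -0.40). POLE2, the second subunit of the leading-strand polymerase epsilon, fell most. It was at 13.8, 16.3 and 13.98 FPKM in SU-DHL-8 controls and 4.99, 4.81 and 5.62 after morusinol (-1.35 ± 0.106, adjusted p = 2.04e-06). Farage had 9.73, 10.1 and 10.6 in controls and 4.04, 4.37 and 5.76 after morusinol (-0.97 ± 0.106, adjusted p = 3.3e-05). POLE, the catalytic subunit of the same enzyme, was at 12.8, 11.9 and 13.3 FPKM in SU-DHL-8 controls and 5.26, 5.23 and 5.36 after morusinol, far apart (-1.12 ± 0.0626, adjusted p = 1.74e-07). Its Farage libraries overlapped, at 14.1, 14.4 and 12.2 in controls and 13.1, 13.1 and 11.9 after morusinol (-0.083 ± 0.0626, adjusted p = 0.327).

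PRIM1, the catalytic subunit of primase, which lays down RNA primers, went the other way from its group. In SU-DHL-8 it was at 11.4, 12.4 and 11.5 FPKM in controls and 13.2, 14.7 and 13.01 after morusinol, separate ranges with no call (0.19 ± 0.076, adjusted p = 0.0595). In 3 of the 20 alternatives PRIM1 was called higher in SU-DHL-8 (adjusted p between 0.022 and 0.0425). In Farage it rose from 3.31, 4.14 and 4.07 to 5.66, 5.09 and 5.67 FPKM (0.42 ± 0.076, adjusted p = 0.00112). GENCODE release 29 has PRIM1 sharing exon bases on its own strand with AC117378.1 and NACA and on the opposite strand with HSD17B6, so its reads and theirs may not have been separated. PRIM2, the other primase subunit, fell by 0.66 in SU-DHL-8 and 0.49 in Farage, and both polymerase alpha subunits fell too. Log2 fold changes of POLA1 were -0.57 and -0.61, and those of POLA2, a gene of 3.42 FPKM in SU-DHL-8 controls, were -0.53 and -0.32. Polymerase delta subunits POLD1, POLD2 and POLD3 fell by 0.58, 0.37 and 0.91 in SU-DHL-8 and by 0.21, 0.66 and 0.23 in Farage. POLE3, a histone-fold subunit of polymerase epsilon, fell by 0.51 and 0.48.

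The 3 enzymes that process Okazaki fragments on the lagging strand fell in both lines (medians -1.05 and -0.72). FEN1, the flap endonuclease, was at 67.8, 70.2 and 72.5 FPKM in SU-DHL-8 controls and 29.1, 30.5 and 27.4 after morusinol (-1.25 ± 0.0688, adjusted p = 1.58e-07). Its Farage values were close to these, 74.9, 66.3 and 72.6 in controls and 36.9, 31.9 and 31.4 after morusinol (-1.07 ± 0.0688, adjusted p = 7.63e-07). With MCM4 it was 1 of the genes that fell at least 2-fold in both lines. DNA2, a nuclease and helicase for long flaps, read 17.1, 18.4 and 16.8 against 7.55, 7.73 and 8.38 FPKM in SU-DHL-8 without and with morusinol (-1.05 ± 0.062, adjusted p = 2.62e-07), and 19.5, 21.6 and 22.7 against 12.5, 11.98 and 13.1 in Farage (-0.72 ± 0.062, adjusted p = 6.18e-06). LIG1, the ligase that seals the fragments, read 17.2, 16.04 and 17.1 against 10.02, 10.2 and 8.71 FPKM in SU-DHL-8 (-0.74 ± 0.0817, adjusted p = 2.81e-05), and 10.2, 9.09 and 8.73 against 7.77, 6.46 and 6.47 in Farage (-0.39 ± 0.0817, adjusted p = 0.00294). No treated library of these genes reached a control library of the same line.

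The subunits of RPA, which coats single-stranded DNA, fell together in SU-DHL-8 and had small changes in Farage (3 and 2 of 3 fell, medians -0.79 and -0.14). RPA1 was at 50.5, 53.8 and 53.9 FPKM in SU-DHL-8 controls and 27.9, 27.9 and 27.8 after morusinol (-0.90 ± 0.0394, adjusted p = 3.11e-08). In Farage it was at 42.3, 39.97 and 41.8 in controls and 38.9, 39.4 and 36.6 after morusinol (-0.11 ± 0.0394, adjusted p = 0.0492), a call lost in 16 of the 20 alternatives with adjusted p of up to 0.231. RPA2 was at 55.4, 54.1 and 52.1 against 32.01, 30.4 and 29.7 FPKM in SU-DHL-8 (-0.79 ± 0.0608, adjusted p = 1.82e-06) and at 41.3, 37.7 and 41.1 against 37.8, 38.02 and 32.8 in Farage, where the groups overlapped (-0.14 ± 0.0608, adjusted p = 0.0851). RPA3 was at 26.1, 28.1 and 25.6 against 19.3, 19.9 and 18.6 FPKM in SU-DHL-8 (-0.45 ± 0.0569, adjusted p = 7.94e-05) and at 12.8, 13.7 and 14.8 against 11.4, 11.9 and 10.9 in Farage (-0.25 ± 0.0569, adjusted p = 0.0052). The treated SU-DHL-8 libraries of all 3 subunits lay below their controls.

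The fork protection factors, which couple the helicase to the polymerases and to checkpoint signalling, all fell in SU-DHL-8, while 2 fell and 1 rose in Farage (medians -1.05 and -0.30). CLSPN codes for claspin, the mediator that brings CHK1 to stalled forks. It was at 15.9, 15.7 and 16.4 FPKM in SU-DHL-8 controls and 4.85, 4.87 and 4.43 after morusinol (-1.57 ± 0.0629, adjusted p = 1.71e-08). In Farage the values were 13.2, 12.3 and 10.97 in controls and 9.79, 10.1 and 9.23 after morusinol (-0.30 ± 0.0629, adjusted p = 0.00308). TIMELESS and TIPIN form a complex at the fork, yet their RNAs moved apart in Farage. TIMELESS read 33.9, 32.5 and 34.04 against 17.2, 18.1 and 17.3 FPKM in SU-DHL-8 without and with morusinol (-0.89 ± 0.0441, adjusted p = 6.76e-08), and 16.4, 15.8 and 15.5 against 18.4, 17.5 and 16.5 in Farage (0.13 ± 0.0441, adjusted p = 0.0385), a rise lost in 11 of 20 alternatives with adjusted p of up to 0.14. TIPIN read 14, 16.3 and 14.9 against 6.25, 7.08 and 7.01 FPKM in SU-DHL-8 (-1.05 ± 0.086, adjusted p = 2.99e-06), and 12.2, 12.6 and 11.5 against 7.17, 7.33 and 5.76 in Farage (-0.76 ± 0.086, adjusted p = 4.43e-05).

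All 4 factors that restore chromatin and methylation behind the fork fell in both lines (medians -0.93 and -0.48). UHRF1, which reads hemimethylated DNA and guides the maintenance methyltransferase to it, had the deepest fall of the 52 genes in SU-DHL-8. It was at 115, 115 and 121 FPKM in controls and 22.8, 20 and 21.2 after morusinol (-2.40 ± 0.0549, adjusted p = 4.81e-10). Farage controls were already at 22.2, 20.3 and 19.6 FPKM and treated libraries at 11.96, 12.1 and 12.5 (-0.72 ± 0.0549, adjusted p = 2.63e-06). The treated SU-DHL-8 level thus overlapped the untreated Farage level. DNMT1, the maintenance methyltransferase itself, fell by 0.64 in SU-DHL-8 and 0.40 in Farage. CHAF1B, a subunit of the histone chaperone CAF-1, was at 9.13, 9.595 and 10.02 against 3.79, 4.61 and 3.86 FPKM in SU-DHL-8 (-1.06 ± 0.0844, adjusted p = 2.39e-06), and at 8.75, 8.56 and 8.64 against 4.78, 5.87 and 6.18 in Farage (-0.55 ± 0.0844, adjusted p = 0.000381). Its large partner CHAF1A was at 25.2, 23.5 and 27.98 against 15.3, 13.2 and 14.2 FPKM in SU-DHL-8 (-0.80 ± 0.0804, adjusted p = 1.4e-05). In Farage CHAF1A was at 22.7, 19.3 and 20.4 against 17.4, 18.9 and 16.8 (-0.22 ± 0.0804, adjusted p = 0.0465), a call lost in 13 of 20 alternatives with adjusted p of up to 0.163.

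The design also allows the responses of the lines to be compared directly. The difference of the responses (Farage log2 fold change minus that of SU-DHL-8, tested as an interaction) was called for 34 of the 52 replication genes, against 34.9% of all genes. Values were positive for 32, a smaller fall or a rise in Farage (17.3% of all genes), and negative for 2, ORC2 and POLD2 (17.6%). The median difference was 0.38, against -0.07 over all genes. These shares over all genes are not matched for level. Where tested genes had to reach 5 FPKM in 3 or more libraries, 51.4% were called, 58% of these positive. Of the 50 replication genes kept, 35 were called positive and 2 negative, with a median of 0.39 against 0.04 over all genes kept. With the filter used elsewhere, the largest difference was that of UHRF1, 1.69 ± 0.0776, adjusted p = 2.85e-07. CLSPN (1.28 ± 0.089), MCM6 (1.27 ± 0.0722), GINS2 (1.20 ± 0.0698), POLE (1.04 ± 0.0886) and TIMELESS (1.02 ± 0.0624) followed, with adjusted p of 3.38e-06, 8.53e-07, 9.99e-07, 1.31e-05 and 1.4e-06. For 18 genes the difference was not called, among them MCM7 (0.10 ± 0.0913, adjusted p = 0.458) and FEN1 (0.17 ± 0.0973, adjusted p = 0.198), which does not show that their responses were alike. ORC2 and POLD2, which fell more in Farage (-0.35 and -0.29), lost their calls once values were rescaled to TPM or library medians were equalised, settings in which no difference was called negative.

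**Figure D3:**
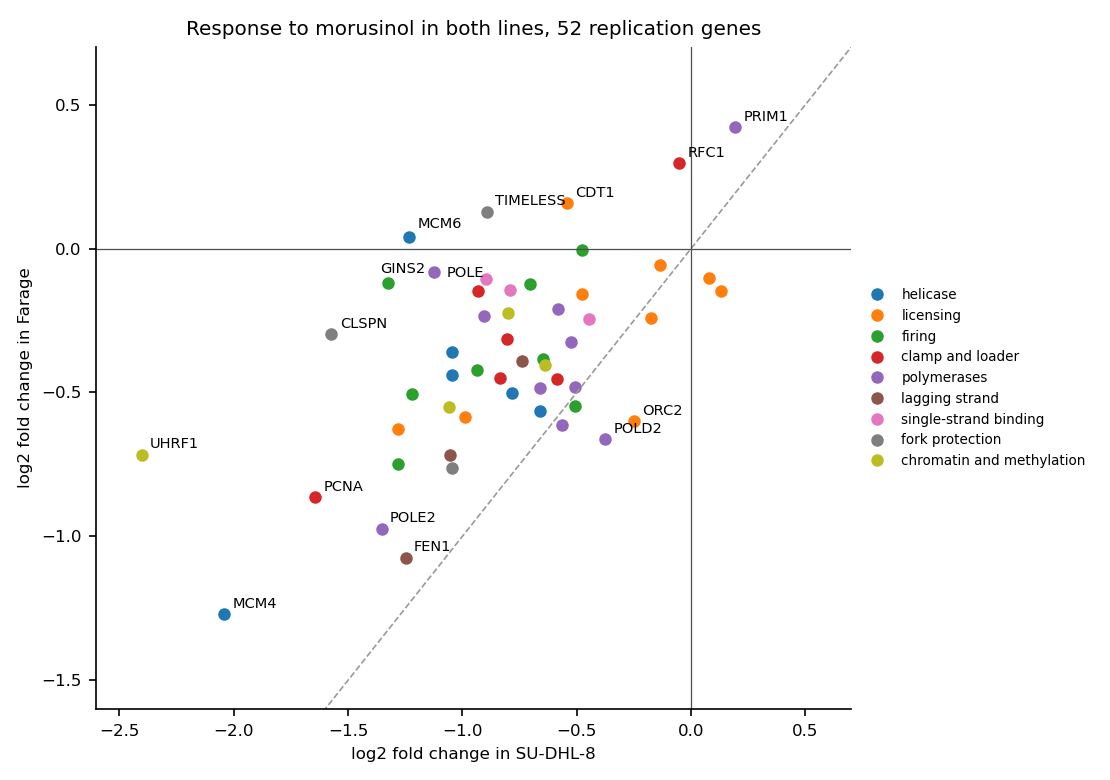
Log2 fold change in Farage (y axis) against that in SU-DHL-8 (x axis) for the 52 replication genes, coloured by role, with the dashed line marking equal responses. Most points lie above the line, those of UHRF1, CLSPN, MCM6 and GINS2 farthest from it, and ORC2 and POLD2 lie below it.

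**Figure D4:**
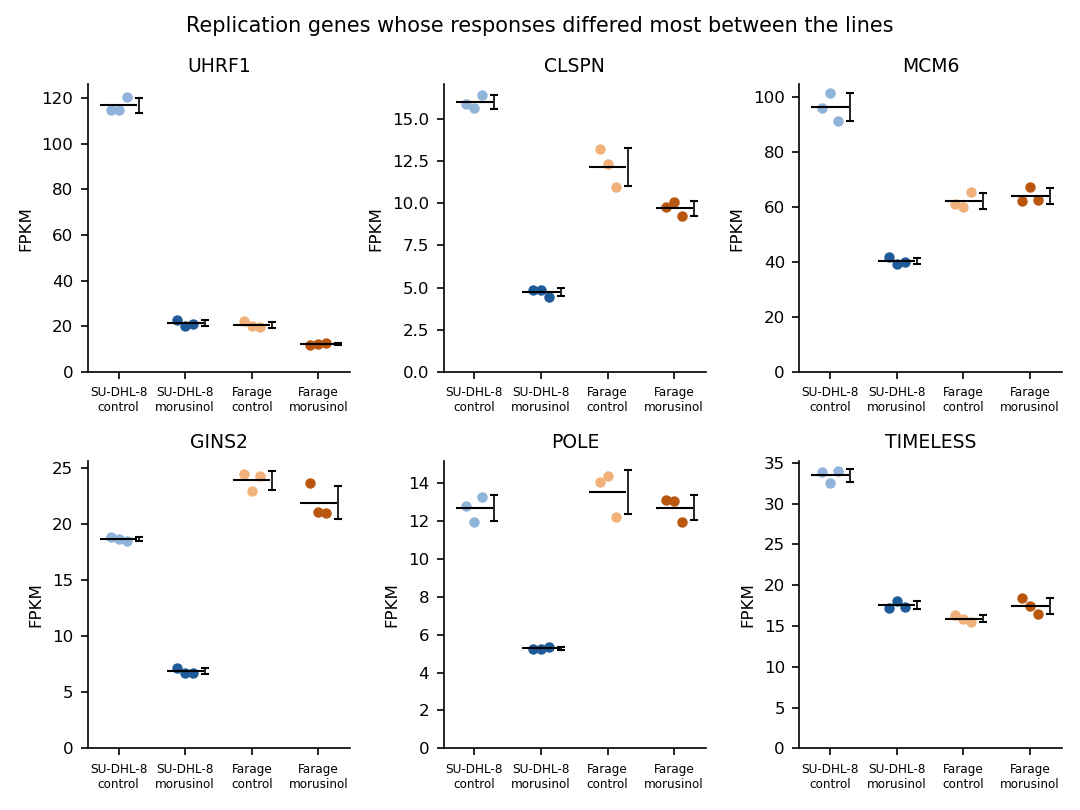
FPKM (y axis, starting at 0) of the 6 replication genes with the largest difference of the responses, in each library of the 4 groups (x axis), with the mean as a line and the SD as a bar, n = 3 per group. Every SU-DHL-8 morusinol library lies below the SU-DHL-8 controls, while in Farage the MCM6, GINS2 and POLE libraries overlap.

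Before treatment the lines differed as well. Between the controls 48 of the 52 replication genes were called (64.1% of all genes). In Farage controls 43 of the 52 replication genes were lower than in SU-DHL-8 controls (29.6% of all genes) and 5 were higher (34.5%). Their median log2 difference was -0.49, against 0.08 over all genes. These shares over all genes are not matched for level. Where tested genes had to reach 5 FPKM in 3 or more libraries, 79.1% were called, 46.7% of these higher in Farage. Of the 50 replication genes kept, 41 were lower and 5 higher, with a median of -0.50 against -0.05 over all genes kept. The mean FPKM of SU-DHL-8 controls exceeded that of Farage controls for 44 genes, with a median ratio of 1.44. After morusinol it did so for 33 genes, with a median ratio of 1.08. On the log2(FPKM + 1) scale UHRF1 had the widest gap between the controls (-2.44), 117 ± 3.25 against 20.7 ± 1.35 FPKM (mean ± SD, n = 3), which narrowed to 21.3 ± 1.39 against 12.2 ± 0.286 after morusinol. GINS1 followed on that scale (-1.90), at 27.3 ± 1.6 against 6.58 ± 0.651 FPKM in controls. GINS2 and GINS3 were higher in Farage controls, by 0.34 and 0.48 on the log2 scale, as were MCM5 (0.21), DNA2 (0.27) and DNMT1 (0.19). With library medians equalised GINS3 alone of these 5 kept its call, and MCM5 and DNMT1 turned to -0.032 and -0.049. FEN1 and GMNN were not called between the controls, with log2 differences of 0.021 ± 0.0688 and 0.012 ± 0.045 (adjusted p = 0.808 and 0.828).

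Motif content was read from the RefSeq promoter table, which holds 45 of the 52 genes, with 60 starts. An E2F match occurred within 250 bases upstream in 17 of these 60 windows (28.33%), against 979 of 35116 windows of the whole table (2.79%). A CCAAT box, a site for the factor NF-Y, occurred in 31 windows (51.67%), against 32.01% of all. The 16 genes with an E2F match had a median log2 fold change of -0.89 in SU-DHL-8 and -0.44 in Farage, and the 29 without had -0.65 and -0.38. A like gap in SU-DHL-8 lay between the 26 genes with a CCAAT box (-0.85, and -0.41 in Farage) and the 19 without (-0.65 and -0.40). These are descriptions of letters in a fixed window. Of the 16 genes with an E2F match 15 fell in SU-DHL-8 and 11 in Farage, and of the 29 without 25 and 21 fell. With a CCAAT box 23 and 18 of 26 fell, and without it 17 and 14 of 19 (21.6% and 21.2% of all genes). Whether either motif bears on the responses was not tested.

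The wider replication programme was read from 5 further gene lists. Their counts stand against 21.6% of all genes that fell and 25.1% that rose in SU-DHL-8, and 21.2% and 21.9% in Farage. These shares are not matched for level. Among genes with a mean of at least 5 FPKM, 39.3% fell in SU-DHL-8 and 31.1% in Farage. The lists were chosen with earlier results of these data known, so their counts are given as a description. Of 23 other replication factors tested, 21 fell in SU-DHL-8, and 17 fell and 2 rose in Farage (medians -0.77 and -0.46). ASF1B, a histone chaperone that works with CAF-1, was at 85.6, 84.3 and 83.4 FPKM in SU-DHL-8 controls and 26.9, 25.01 and 24.9 after morusinol (-1.68), and its log2 fold change in Farage was -0.46. DTL, the ubiquitin ligase adaptor that removes CDT1 in S phase, fell by 1.35 and 0.61, and DSCC1, of the alternative clamp loader, by 1.14 and 0.76. RNASEH2A and CHTF8 failed the filter and were not tested, with no library above 0.479 and 0.513 FPKM.

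Enzymes that supply DNA precursors were lower as well, with 9 of 10 falling in SU-DHL-8 and 5 of 10 in Farage (medians -1.17 and -0.32). RRM2, the regulated subunit of ribonucleotide reductase, fell by 1.53 in SU-DHL-8 and 0.43 in Farage. SAMHD1, which instead degrades deoxynucleotides, fell by 1.12 and 0.95. Among 19 E2F and RB family genes and their partners, 17 fell and 1 rose in SU-DHL-8, and 11 fell and 5 rose in Farage (medians -1.15 and -0.36). E2F1 was at 59.3, 57.6 and 59.3 FPKM in SU-DHL-8 controls and 37.9, 36.2 and 34.9 after morusinol (-0.68 ± 0.0515, adjusted p = 1.66e-06), and at 25.6, 24.9 and 24 against 19.8, 18.4 and 17.1 in Farage (-0.41 ± 0.0515, adjusted p = 9.04e-05). The cyclins CCNE1 and CCNE2, which drive entry into S phase, fell by 1.52 and 1.26 in SU-DHL-8 and by 0.96 and 0.997 in Farage. CDC25A, the phosphatase that activates their kinase, fell by 1.37 and 0.97.

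The checkpoint and mitosis lists held genes that rose in Farage. Of 9 checkpoint genes 6 fell and 1 rose in SU-DHL-8, and 4 fell and 4 rose in Farage (medians -0.49 and 0.14). RAD1, a subunit of the checkpoint clamp, fell by 0.76 and 0.30 in the lines, and ATRIP, the partner of the ATR kinase, by 0.62 and 0.32. CHEK2, a checkpoint kinase, fell in SU-DHL-8 (-0.84) and was not called in Farage (0.14). Of 17 mitotic genes tested, 15 fell and none rose in SU-DHL-8, whereas 3 fell and 11 rose in Farage (medians -0.61 and 0.19). Rescaled to TPM, 1 fell and 9 rose in Farage, and with library medians equalised 1 fell and 10 rose. CCNB1, the mitotic cyclin, and CDK1, its kinase, fell in both lines, by 1.44 and 1.19 in SU-DHL-8 and by 0.26 and 0.26 in Farage. Their Farage falls did not both keep their calls in either rescaled setting, where 1 mitotic gene fell. AURKA, a spindle kinase, fell from 94.1, 92.1 and 85.2 to 39.02, 37.6 and 39.1 FPKM in SU-DHL-8 (-1.21 ± 0.0556, adjusted p = 4.19e-08) and rose from 27.4, 26.03 and 27.9 to 28.8, 31.1 and 33.2 in Farage (0.19 ± 0.0556, adjusted p = 0.0194). Replication and mitotic genes had medians of -0.79 and -0.61 in SU-DHL-8 but -0.39 and 0.19 in Farage. The difference between these lists was not tested.

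**Figure D5:**
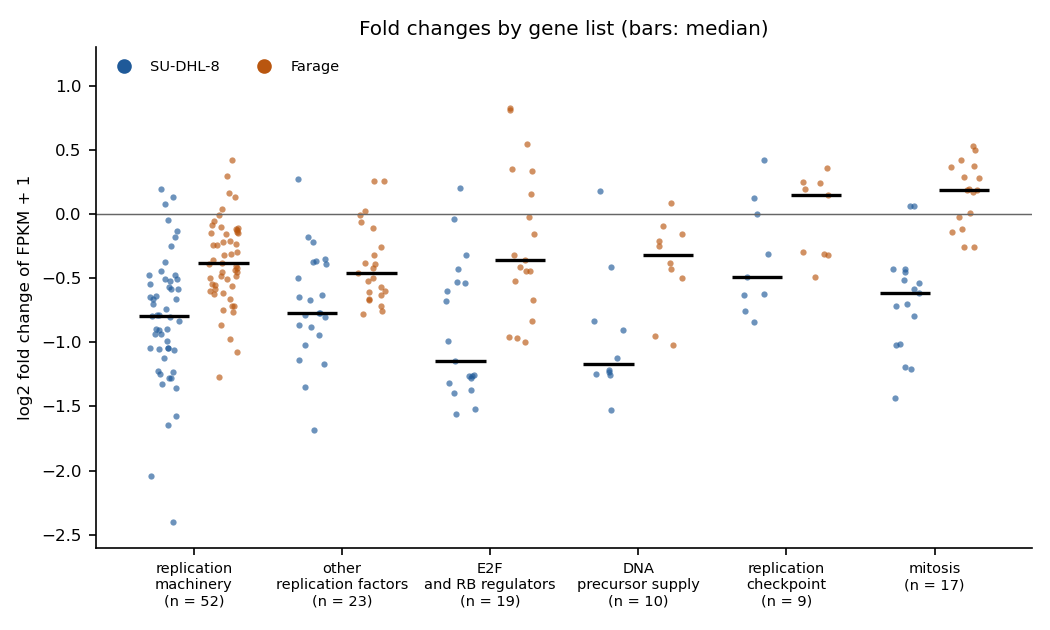
Log2 fold change of FPKM + 1 (y axis) for each tested gene of the replication set and 5 further lists (x axis), with a line at the median, in SU-DHL-8 and in Farage. The medians are below 0 for all 6 lists in SU-DHL-8, and in Farage they are above 0 for the checkpoint (0.14) and mitosis (0.19) lists.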

How the data were processed

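RNA from 12 libraries, 3 in each of 4 groups, was sequenced from SMARTer mRNA-seq libraries, per the labels' protocols. The authors deposited 1 table of FPKM for 61466 genes, and no counts were used. No source used here gives the aligner, counting program, annotation or strand. The submitters' processing notes list only the mouse builds GRCm38 and mm10, yet all identifiers are human and 58297 of them (94.8%) occur in GENCODE release 29. Table columns marked n were taken as control, the group that the labels leave unmatched. Without strand, 24 of the 52 replication genes that share exon bases with another gene in that annotation may hold some of its reads.

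Depth was estimated from the steps of FPKM times exon length, and 50.9% to 53.0% of values under 50 fragments came out whole (tolerance 0.02), so reads were not recovered. No 2 libraries held identical values.

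The 17574 genes that reached an FPKM of 1 in 3 or more libraries were tested with limma 3.58.1 (R 4.3.3) on log2(FPKM + 1), with 1 mean per group over all 12 libraries, an intensity trend and a robust prior. Tests were two-sided with Benjamini-Hochberg adjustment over all genes tested. Plots were drawn with matplotlib 3.10.9 in Python 3.11.15, and tables were handled with pandas 2.3.3 and numpy 2.4.6. Genes given library by library are, in each of 9 role groups, the 2 with the largest and the 1 with the smallest mean absolute log2 fold change over the lines, those called against their group, and the 6 largest differences between the lines. Of the other lists, 3 genes each by the same measure, plus E2F1 and CCNE2, are named. The values of 1 gene that this rule takes are not reported here. The replication genes and the lists were chosen with earlier results of these data known. The 20 alternatives were other pseudocounts, filters, scalings and models, and leaving out each library.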

Additional observations from a re-analysis of the deposited data

Results flagged for a closer look

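The response to morusinol differed between the lines for 34 of the 52 replication genes, against 34.9% of all genes, a share not matched for level. It also differed for 15 of the genes named from the 5 further lists. Of these, CDK2, TOP2A and RB1 were picked out after their values were seen, and most others for large fold changes. That count therefore does not describe the lists. The test was that of the difference itself (the interaction in limma, Benjamini-Hochberg adjusted over all genes, 3 libraries per group). Values are the Farage minus the SU-DHL-8 log2 fold change. In the helicase these were 0.61 for MCM2, 0.28 for MCM3, 0.77 for MCM4, 0.69 for MCM5 and 1.27 for MCM6. Licensing factors gave 0.40 for ORC1, -0.35 for ORC2, 0.70 for CDT1 and 0.65 for GMNN. Firing factors gave 0.51 for CDC7, 0.47 for DBF4, 0.71 for GINS1, 1.20 for GINS2, 0.58 for GINS4 and 0.53 for MCM10. The clamp and its loader gave 0.78 for PCNA, 0.35 for RFC1, 0.78 for RFC2, 0.39 for RFC3 and 0.49 for RFC5. Polymerase subunits gave 0.37 for POLD1, -0.29 for POLD2, 0.67 for POLD3 and 1.04 for POLE. Further differences were 0.35 for LIG1, 0.33 for DNA2, 0.79 for RPA1, 0.65 for RPA2, 1.28 for CLSPN and 1.02 for TIMELESS. Chromatin and methylation factors gave 0.58 for CHAF1A, 0.51 for CHAF1B, 1.69 for UHRF1 and 0.23 for DNMT1. Adjusted p ran from 2.85e-07 (UHRF1) to 0.0379 (LIG1).

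Across the further lists the difference was called for 14 of 23 other replication factors and 16 of 19 E2F and RB family genes. It was also called for 7 of 10 precursor enzymes, 6 of 9 checkpoint genes and 16 of 17 mitotic genes, against 34.9% of all genes. This share over all genes is not matched to the level of genes in the further lists, which were chosen with earlier results of these data known. Among the genes named from them, the differences were 1.22 for ASF1B, 0.74 for DTL, 0.27 for E2F1, 0.56 for CCNE1, 0.27 for CCNE2, 0.41 for CDC25A, 1.09 for RRM2, 0.99 for CHEK2 and 0.46 for RAD1. Mitotic genes gave 0.93 for CDK1, 1.17 for CCNB1 and 1.39 for AURKA. Those of CDK2 (2.22), TOP2A (0.89) and RB1 (1.08) were picked out after their values were seen.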

How the results depend on the processing

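The counts of called replication genes stayed within 1.5 times those reported under all 20 alternatives (19 for the difference, which cannot be fitted from the compared groups alone). Leaving out each library in turn gave 47 to 48 in SU-DHL-8, 37 to 42 in Farage, 32 to 35 for the difference and 46 to 48 for the controls, and the other settings gave 47 to 49, 37 to 39, 32 to 41 and 45 to 48. Whether replicate numbers pair the libraries is not stated in the labels. Deviations of same-numbered libraries correlated at -0.0788 to 0.0331 and those of other pairs at -0.0957 to 0.1149. With 3 libraries per group these values cannot settle it. With the replicate block 47, 38, 34 and 48 genes were called. Of single-gene values, 1029 of 1038 in SU-DHL-8, 986 of 1038 in Farage and 927 of 986 for the difference kept direction and call. In the responses and their difference, signs turned only for genes that were not called, whereas between the controls the called differences of MCM5 and DNMT1 turned with library medians equalised, to -0.032 and -0.049. Rescaled to TPM these were ORC3 in SU-DHL-8 (-0.025), DBF4 in Farage (0.0079) and the differences of CDC6 (0.050), CDC45 (0.064) and POLA1 (0.047). With library medians equalised they were ORC3 (-0.074) and ORC5 (-0.019) in SU-DHL-8 and the differences of CDC6 (0.083), CDC45 (0.10) and POLA1 (0.099). Leaving out a library turned DBF4 in Farage (0.0094 without control 2, 0.053 without morusinol 1, range -0.066 to 0.053) and the differences of CDC45 (0.0049 without SU-DHL-8 morusinol 1, range -0.12 to 0.0049) and POLE3 (-0.0033 without SU-DHL-8 control 2, -0.0073 without SU-DHL-8 morusinol 3, range -0.0073 to 0.067). The cause was not tested. The called differences of DNMT1 and LIG1 were lost in 12 and 8 settings (adjusted p up to 0.0803 and 0.0888). Equalising medians moved the median of all genes from 0.02 to -0.13 in SU-DHL-8, from -0.07 to 0.08 for the difference and from 0.08 to -0.16 for the controls. Among called genes the higher ones went from 53.7% to 36.8% in SU-DHL-8 (44.4% with TPM), from 49.6% to 68.4% for the difference (62.5% with TPM) and from 53.8% to 38.2% for the controls. Depth was estimated and not counted, so no counting error is given.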

Other observations

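CDK2, RB1 and TOP2A, genes of the further lists picked out after their values were seen, went in opposite directions in the lines. CDK2, the kinase partner of cyclin E, was at 30.9, 31.3 and 30.6 FPKM in SU-DHL-8 controls and 10.3, 11.8 and 11.4 after morusinol (-1.39 ± 0.0505, adjusted p = 8.86e-09). In Farage it was at 20.9, 20.9 and 21.4 in controls and 40.2, 37.8 and 36.6 after morusinol (0.83 ± 0.0505, adjusted p = 5.38e-07). It thus fell in SU-DHL-8 and rose in Farage, while the cyclin genes CCNE1 and CCNE2 fell in both. CDK2 shares exon bases with AC025162.1 and PMEL on the opposite strand, and no source used here gives the strand of counting. RB1, the pocket protein that restrains E2F factors, read 58.6, 63.3 and 54.5 against 39.7, 38.3 and 42.8 FPKM in SU-DHL-8 without and with morusinol (-0.53 ± 0.0713, adjusted p = 0.000112) and 6.604, 7.49 and 6.57 against 10.8, 9.74 and 10.97 in Farage (0.55 ± 0.0713, adjusted p = 0.000126). TOP2A, the topoisomerase that untangles replicated chromosomes, read 175, 183 and 166 against 111, 114 and 112 FPKM in SU-DHL-8 (-0.63 ± 0.0432, adjusted p = 7.49e-07) and 88.9, 87.2 and 92.4 against 105, 105 and 112 in Farage (0.26 ± 0.0432, adjusted p = 0.000717). Treated and control libraries did not overlap for any of these genes in either line, which follows in part from picking them by their values. In SU-DHL-8 all treated libraries lay below all controls for 24.9% of all genes. The matching share for a rise in Farage was not computed. Further genes of these lists, among them TFDP2, ASF1A and WEE1, were also called lower in SU-DHL-8 and higher in Farage.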
